A study of Mus musculus with 6 samples.

Results

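Chemokine receptor RNA was examined in regulatory T cells (Treg) recovered from the spleen of bone marrow recipients. The receptors were 9 genes, Ccr2, Ccr4, Ccr6, Ccr7, Ccr8, Cxcr3, Cxcr4, Cxcr5 and Cxcr6, taken by gene name from a table of 29199 genes, and each matched 1 row. Irradiated hosts, C57BL/6 J (B6) or CD45.1+ B6 mice, received a mixture of C57BL/6 J and semi-allogeneic B6D2F1 bone marrow, naive conventional CD4+ T cells (Tconv) and wild-type Treg, and Treg were sorted about 3 weeks later. In all 6 libraries the Treg were wild-type cells from B6 Foxp3-Thy1.1 mice, expanded in culture with IL-2, TGF-β and anti-CD3/CD28 beads before transfer. The groups differed in the co-injected Tconv, which were wild-type (WT) in 3 libraries and HP1α-deficient (HP1α KO) in 3. HP1α is a heterochromatin protein encoded by Cbx5. The KO allele came from a CMV-cre deletion passed through the germline, so that every cell of the KO Tconv donors carried it. WT Tconv came from littermates, and the line had a mixed 129/Sv and C57BL/6 background. The study used sex-matched young adult littermates. The sort took CD4+ Thy1.1+ cells that were CD45.1-, CD45.2+, H-2Kb+ and H-2Kd-. Libraries are called WT-1 to WT-3 and KO-1 to KO-3 after the Tconv and the replicate number. The labels do not say whether each library came from 1 mouse or from several, so p-values measure the spread between these libraries, part of which may be technical.

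Chemokine receptors span the membrane with 7 helices and couple to inhibitory G proteins, and cells move up a gradient of the ligand. Cxcr4, Ccr7 and Cxcr5 guide lymphocytes to the bone marrow, the T zone and the B cell follicle, respectively. Cxcr3, Cxcr6, Ccr2, Ccr4, Ccr6 and Ccr8 are carried by activated and effector T cells, including effector Treg, and respond to ligands made in inflamed or barrier tissue. After activation, receptors are phosphorylated by G protein-coupled receptor kinases and bound by arrestins, while Rgs proteins shorten the G protein signal.

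All 9 genes encode a short stretch just after a transmembrane helix through which receptors of this family engage G proteins. It is printed for 8 of them because it is a part of the coding sequence that the members share, with the 3 codons of its core in capitals and the next 6 codons in lower case. Sequences are from the canonical GENCODE transcripts of GRCm39, 5′ to 3′.
Cxcr4: GACCGGTACctcgctattgtccacgcc
Ccr7: GACCGCTACgtagccatcgtccaggcc
Cxcr5: GACCGGTACctagccatcgtccatgct
Cxcr3: GACAGATATctgagcatagtgcacgcc
Cxcr6: GATCGTTTCattgtagtggtccaggct
Ccr2: GATAGGTACttggctattgttcatgct
Ccr4: GACAGATACctggccatcgtgcacgcg
Ccr6: GACCGGTACattgccatcgtccaggca
Each stretch has 27 bases. Among the 8 printed, identity with the Cxcr4 stretch ran from 16 bases in Cxcr6 to 22 bases in Cxcr5. Cxcr4, Ccr6 and Cxcr5 shared the same core codons, and the core of Cxcr6 differed from the others printed in its last codon, which encodes another amino acid.

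Gene structure was also alike. The coding sequences measured 1056 to 1137 bases, and in 5 of the 9 (Ccr2, Ccr4, Ccr6, Ccr8 and Cxcr6) the whole coding sequence lay in the last exon. Chromosome 9 held 5 members. Cxcr6 (ENSMUSG00000048521, GRCm39 chromosome 9, 123635534 to 123640825, plus strand) ended 261157 bases before Ccr2 (ENSMUSG00000049103, 123901982 to 123913594, plus strand). Ccr8 (ENSMUSG00000042262, 119921180 to 119924263, plus strand), Ccr4 (ENSMUSG00000047898, 114319384 to 114333984, minus strand) and Cxcr5 (ENSMUSG00000047880, 44423083 to 44473174, minus strand) lay on the same chromosome. The others were Cxcr4 (ENSMUSG00000045382, chromosome 1, 128515936 to 128520044, minus strand), Ccr7 (ENSMUSG00000037944, chromosome 11, 99035022 to 99045911, minus strand), Ccr6 (ENSMUSG00000040899, chromosome 17, 8454869 to 8475973, plus strand) and Cxcr3 (ENSMUSG00000050232, chromosome X, 100775141 to 100777875, minus strand).

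The libraries held 87421755 to 119078882 counts each. The receptors were measured at 886 to 52155 counts per library, and replicates differed by more than counting noise. Treg markers were present in every library, and the 7 of them summed to 4979, 4992 and 4352 CPM with WT Tconv and 4502, 4653 and 4213 CPM with HP1α KO Tconv (counts scaled by the library total, which for the receptors and other single genes below was also TMM-scaled). Foxp3 was at 158 to 254 CPM and overlapped, while Ctla4 was at 1243, 1322 and 1093 CPM with WT Tconv and 1029, 1047 and 806 CPM with HP1α KO Tconv, without overlap (edgeR FDR 0.232, DESeq2 FDR 0.0414). Libraries WT-3 and KO-2 stood apart from their replicates. The chi-square per degree of freedom over genes was 111 or more for WT-3 against WT-1 and WT-2, which gave 21.6 between them, and 142 and 177 for KO-2 against KO-1 and KO-3, which gave 29.6. KO-2 held the least Foxp3 (158 CPM), Il2ra (124 CPM), Cd3e (151 CPM) and Cd4 (707 CPM) of the 6. Of the other Treg markers, its Tnfrsf18 (594 CPM) was the highest of the 6. Its Ikzf2 (1873 CPM), its Ctla4 (1047 CPM) and its marker sum (4653 CPM) were the highest with HP1α KO Tconv. Without KO-2, DESeq2 called 1413 genes in place of 526. In WT-3 the 8 neutrophil markers summed to 1824 CPM, against 41.4 to 226 CPM in the other 5 libraries. Its 6 red cell markers summed to 5501 CPM, against 370.2 to 688 CPM, and its 7 monocyte or macrophage markers to 218 CPM, against 24.3 to 64.3 CPM. The 8 B cell markers, which matter here because B cells carry Cxcr5, Ccr7, Ccr6 and Cxcr4, summed to 27.8 to 40.3 CPM with WT Tconv and 28.3 to 34.7 CPM with HP1α KO Tconv, with Cd79b (13.2 to 19.0 CPM) and Cd22 (9.16 to 16.9 CPM) the largest, while Ms4a1, Cd79a and Pax5 did not exceed 2.48 CPM and Fcrla was at 0 in 1 library. The 7 dendritic cell markers summed to 12.2 to 23.4 CPM with WT Tconv and 8.61 to 16.1 CPM with HP1α KO Tconv, the 5 NK cell markers to 8.03 to 13.6 CPM and 8.73 to 8.97 CPM, the 5 plasma cell markers to 157 to 183 CPM and 128 to 158 CPM (of which Xbp1, which other cells express too, gave 127 to 171 CPM), and the 2 CD8 T cell markers to 6.34 to 7.68 CPM and 5.82 to 8.85 CPM. Exact permutation (2-sided) p-values for the marker sums, the Treg markers included, ranged from 0.2 to 1, where 3 libraries against 3 cannot give less than 0.1. In sorted bulk cells, fewer cells carrying a receptor and less receptor RNA per cell cannot be told apart.

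The comparison asked whether WT Treg carried other amounts of receptor RNA after sharing a host with HP1α KO Tconv. Cxcr4 was the receptor with the largest difference, at 200 CPM with HP1α KO Tconv against 372 CPM with WT Tconv. Smaller differences (log2 fold change, HP1α KO Tconv over WT Tconv) were -0.37 for Cxcr6 and -0.31 for Ccr7. They were 0.25 for Cxcr3, 0.27 for Ccr4 and 0.27 for Ccr6. No receptor passed the test of edgeR (quasi-likelihood F-test, p-values adjusted by Benjamini-Hochberg over 18321 genes, printed from here on as FDR), in which 0 of 9 had an adjusted p-value under 0.05, as did 0% of all genes tested. limma-voom also called 0 of the 9. Before adjustment, 3 of the 9 had an edgeR p-value under 0.05, against 14.5% of all genes, of which Cxcr4 and Cxcr6 were lower with HP1α KO Tconv (7.52% of all genes) and Cxcr3 was higher (6.98%). DESeq2, the tool of the study, at an adjusted p-value under 0.05 and without the fold threshold that the study added and Cxcr4 did not reach, called 1 of the 9, Cxcr4, against 4.35% of the genes to which it gave an adjusted p-value, or 3.03% for lower genes. After TMM scaling the groups did not overlap for 4 of the 9 (Cxcr4 and Cxcr6 lower, Cxcr3 and Ccr6 higher with HP1α KO Tconv), against 23.0% of all genes (11.6% lower and 11.5% higher). The median log2 fold change (HP1α KO Tconv over WT Tconv) was -0.0010 over the receptors and -0.0085 over all genes, with 4 receptors above 0 and 5 below.

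**Figure D1:**
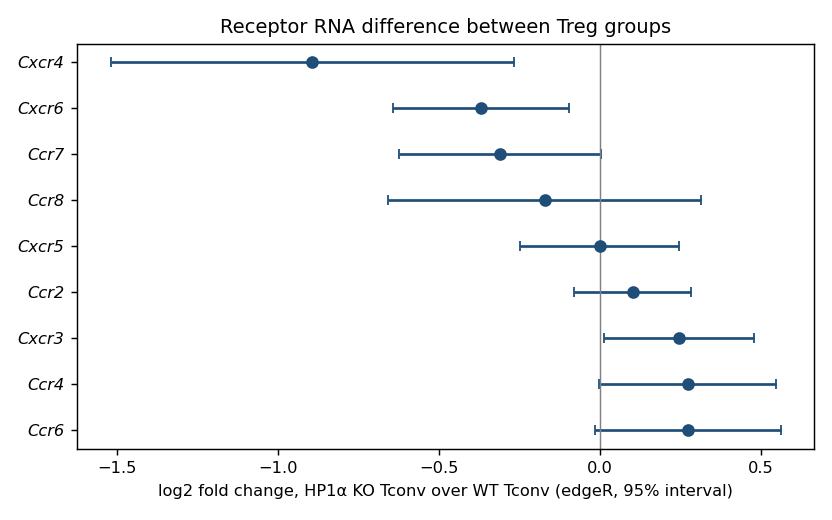
Log2 fold change of the 9 receptor genes (horizontal axis, HP1α KO Tconv over WT Tconv) with the 95% interval of the edgeR fit, not adjusted for the number of genes. Cxcr4 lies farthest from 0 at -0.89, the intervals of Cxcr4, Cxcr6 and Cxcr3 leave out 0, and Cxcr5 sits at 0.

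Cxcr4 is the receptor of Cxcl12 and holds leukocytes in bone marrow and in niches rich in that ligand. Its level was 344, 327 and 446 CPM in replicates 1, 2 and 3 of Treg with WT Tconv and 239, 226 and 136 CPM in those of Treg with HP1α KO Tconv. All 3 libraries with HP1α KO Tconv were below all 3 with WT Tconv, and the replicates numbered 3 held the highest and the lowest level. The means were 372 CPM ± 64.2 (SD, n = 3) and 200 CPM ± 56.4 (SD, n = 3). On the log2 scale the difference was -0.89 ± 0.25 (SE, 95% interval -1.52 to -0.27), or 1.86-fold lower. The adjusted p-value was 0.241 in edgeR, 0.232 in limma-voom and 0.000395 in DESeq2, with an unadjusted edgeR p-value of 0.0135.

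The size of the Cxcr4 difference depended little on the test, and the call did. Over the 15 alternatives in edgeR or limma-voom the log2 fold change ran from -1.03 to -0.68 and the adjusted p-value from 0.213 to 0.441, with 0 calls. Over 7 DESeq2 fits, namely that of all libraries and the 6 that each left out 1 library, it ran from -1.04 to -0.68, and all 7 had an adjusted p-value under 0.05, from 0.000395 to 0.046. Without library WT-3, the library with the neutrophil and red cell RNA, the log2 fold change was -0.74 (edgeR FDR 0.399) and -0.75 (DESeq2 FDR 0.0432). Without library KO-3 it was -0.68 (edgeR FDR 0.436, DESeq2 FDR 0.0024).

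**Figure D2:**
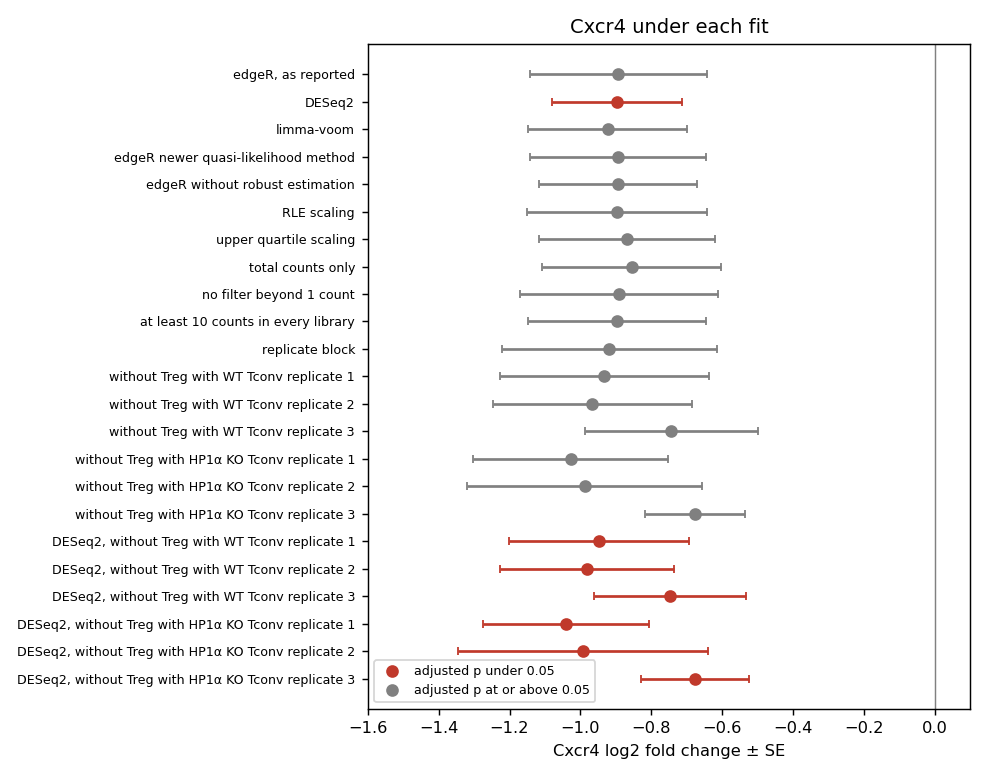
Cxcr4 log2 fold change (horizontal axis, points) with its standard error (bars) in the reported edgeR fit and in 22 alternatives, with red marking an adjusted p-value under 0.05. The 7 DESeq2 fits are red and all others grey, while the points all lie between -1.04 and -0.68.

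Neutrophils and B cells also carry Cxcr4, and their markers were set beside it. Neutrophil markers summed to 99.2, 41.4 and 1824 CPM in WT-1, WT-2 and WT-3, where Cxcr4 was at 344, 327 and 446 CPM. In KO-1, KO-2 and KO-3 they summed to 193, 79.2 and 226 CPM, where Cxcr4 was at 239, 226 and 136 CPM. B cell markers summed to 35.6, 27.8 and 40.3 CPM in WT-1, WT-2 and WT-3 and to 29.0, 28.3 and 34.7 CPM in KO-1, KO-2 and KO-3. In the same order, plasma cell markers, mostly Xbp1, summed to 157, 164 and 183 CPM and to 158, 156 and 128 CPM. Monocyte or macrophage markers summed to 34.9, 24.3 and 218 CPM and to 57.9, 31.3 and 64.3 CPM. The part of these cells in the Cxcr4 level was not tested.

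**Figure D3:**
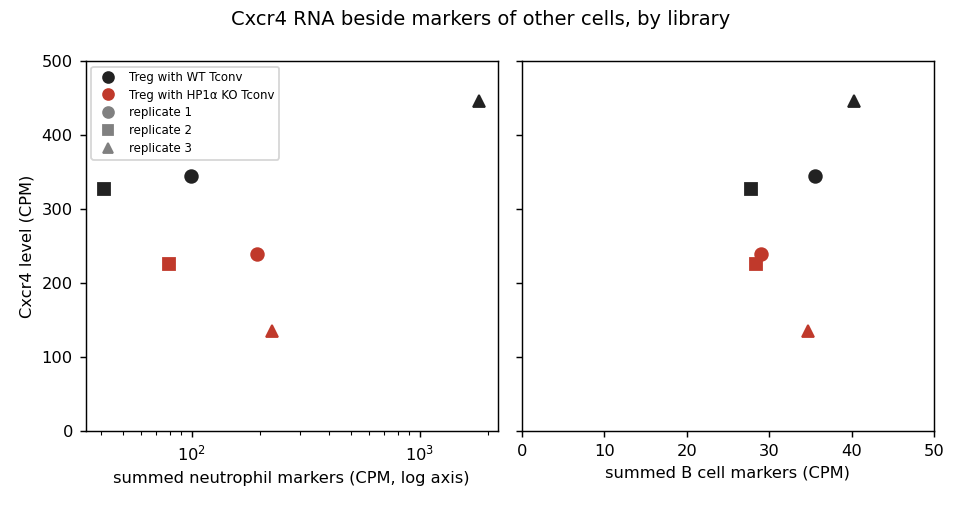
Cxcr4 level (vertical axis, CPM) against the summed neutrophil markers (left, log axis) and the summed B cell markers (right) in each library, with groups by colour and replicates by symbol. Library WT-3 lies far to the right at 1824 CPM of neutrophil markers, and the other 5 lie between 41.4 and 226 CPM.

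Cxcr4 was also compared with the other receptors within each library, where scaling between libraries has no bearing. Its share of the counts summed over the 9 genes was 28.2%, 25.2% and 34.3% with WT Tconv and 20.1%, 19.0% and 13.1% with HP1α KO Tconv. Counts of Cxcr4 exceeded those of Cxcr3 in all 3 libraries with WT Tconv, with ratios of 1.67, 1.23 and 2.15, and were below them in all 3 with HP1α KO Tconv, with ratios of 0.89, 0.848 and 0.503. These ratios were formed after the levels had been seen and were not tested.

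Cxcr3 and Cxcr6 are receptors of type 1 inflammation. Cxcr3 binds Cxcl9, Cxcl10 and Cxcl11, which interferon-γ induces, and Cxcr6 binds Cxcl16. Cxcr3 was at 207, 265 and 207 CPM in replicates 1, 2 and 3 of Treg with WT Tconv and at 269, 267 and 270.0 CPM with HP1α KO Tconv. The 3 KO libraries lay close together, and library WT-2 fell just below them. Group means were 226 ± 33.6 and 269 ± 1.67 CPM (SD, n = 3 each), and the log2 fold change was 0.25 ± 0.102 (SE, edgeR FDR 0.324, DESeq2 FDR 0.21). Leaving out that library gave 0.39 in edgeR (FDR 0.424) and 0.37 in DESeq2 (FDR 0.000274). Leaving out WT-1 gave 0.20 in edgeR (FDR 0.54) and 0.18 in DESeq2 (FDR 0.508), and leaving out WT-3 gave 0.19 (FDR 0.554) and 0.18 (FDR 0.549).

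Cxcr6 had the opposite sign. It was at 61.1, 75.9 and 53.9 CPM with WT Tconv and at 48.2, 50.1 and 49.5 CPM with HP1α KO Tconv. Library WT-2 held the most of all 6, and the 3 KO libraries lay below the 3 WT libraries. Group means were 63.6 ± 11.3 and 49.3 ± 0.953 CPM (SD, n = 3 each), and the log2 fold change was -0.37 ± 0.118 (SE, edgeR FDR 0.241, DESeq2 FDR 0.0679). Without library WT-3, edgeR gave -0.48 (FDR 0.38) and DESeq2 gave -0.48 (FDR 0.018). Without WT-2, edgeR gave -0.21 (FDR 0.451) and DESeq2 gave -0.22 (FDR 0.226). Cxcr6 lies within the span of Fyco1 on the other strand, with which it shares 0 exonic bases.

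**Figure D4:**
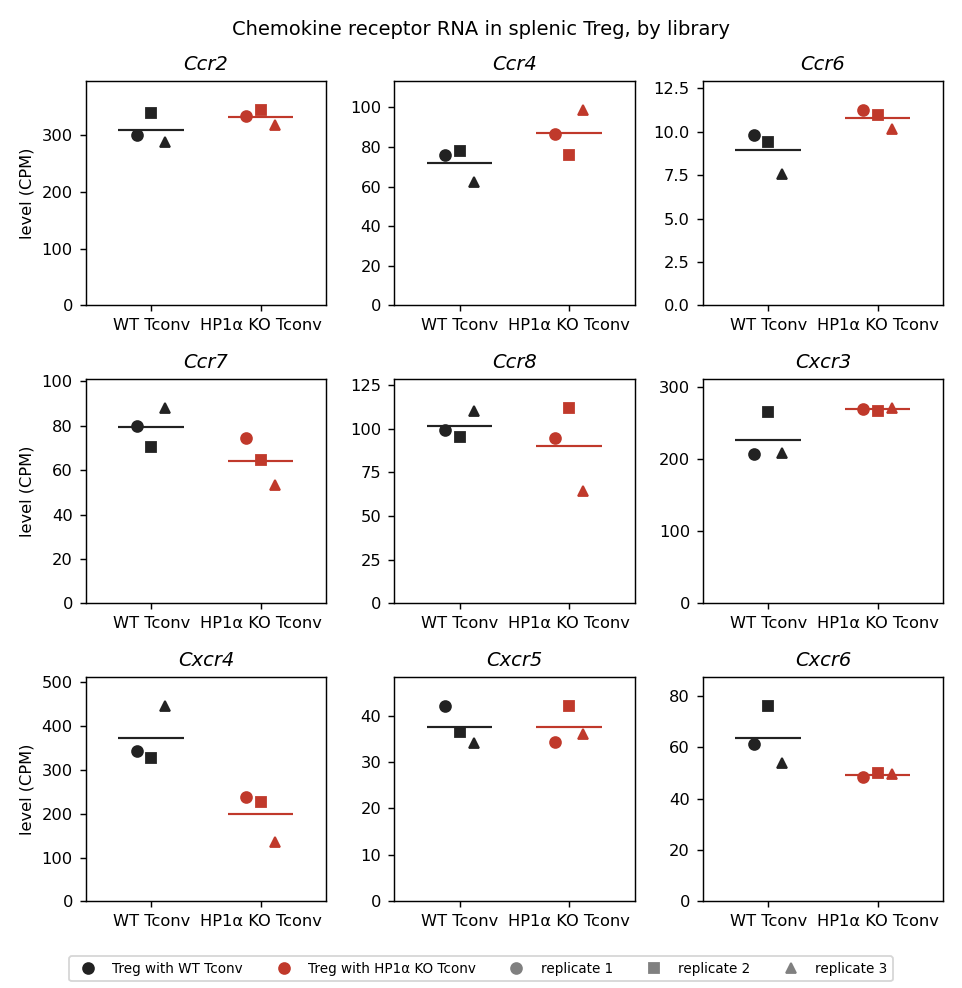
Level of each receptor (vertical axes from 0, CPM) in each of the 6 libraries, with groups by colour, replicates by symbol and the group mean as a line. On the TMM scale the groups do not overlap for Cxcr4, Cxcr6, Cxcr3 and Ccr6.

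Ccr7 and Cxcr5 place lymphocytes within lymphoid organs. Ccr7, the receptor of Ccl19 and Ccl21 and a mark of central Treg, was at 80.1, 70.3 and 87.9 CPM with WT Tconv and at 74.5, 64.6 and 53.2 CPM with HP1α KO Tconv. The groups overlapped through replicate 2 of the former and replicate 1 of the latter. The log2 fold change was -0.31 ± 0.135 (SE, edgeR FDR 0.352, DESeq2 FDR 0.179), and it was negative in all 22 alternatives (-0.43 to -0.19, the latter without KO-3). Cxcr5, the receptor of Cxcl13 that marks follicular Treg, was at 42.0, 36.4 and 34.0 CPM with WT Tconv and at 34.2, 42.0 and 36.1 CPM with HP1α KO Tconv. Its group means were 37.5 CPM ± 4.09 (SD, n = 3) and 37.4 CPM ± 4.05 (SD, n = 3). The log2 fold change was -0.0010 (95% interval -0.25 to 0.25, edgeR FDR 0.998), and its sign changed in 10 alternatives. On its exons, 3.54% of the bases overlap Bcl9l on the other strand.

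Ccr2, Ccr4, Ccr6 and Ccr8 serve entry into inflamed and barrier tissue. Ccr2, the receptor of Ccl2, was at 301, 339.7 and 289 CPM with WT Tconv and at 335, 344 and 318 CPM with HP1α KO Tconv. The groups overlapped, and the log2 fold change was 0.10 (95% interval -0.08 to 0.28, edgeR FDR 0.594). Without WT-2 edgeR gave 0.19 (unadjusted p-value 0.0528, FDR 0.457), and without WT-3 0.05 (FDR 0.854). Ccr8, a receptor of Ccl1 that is abundant on effector Treg in tissues, was at 99.3, 95.3 and 110.2 CPM with WT Tconv and at 94.5, 112 and 64.5 CPM with HP1α KO Tconv. Replicates 2 and 3 of Treg with HP1α KO Tconv held the highest and the lowest level. For Ccr8 the log2 fold change was -0.17 (95% interval -0.66 to 0.31, edgeR FDR 0.73), and became 0.02 without library KO-3, -0.35 without KO-2 and -0.11 without WT-3.

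Ccr4, which binds Ccl17 and Ccl22, was at 75.8, 77.9 and 62.5 CPM with WT Tconv and at 86.8, 75.8 and 98.6 CPM with HP1α KO Tconv. On this TMM scale the groups overlapped through replicate 2 of the latter, and on library totals alone they did not. For Ccr4 the log2 fold change was 0.27 ± 0.119 (SE, edgeR FDR 0.348, DESeq2 FDR 0.214). It was 0.36 without KO-2 (edgeR FDR 0.204, DESeq2 FDR 0.0302), 0.17 without KO-3 in edgeR (FDR 0.627) and 0.18 without WT-3 in edgeR (FDR 0.577). Ccr6, the receptor of Ccl20 that is shared with Th17 cells, was the scarcest of the 9, at 9.82, 9.38 and 7.57 CPM with WT Tconv and 11.2, 11.0 and 10.2 CPM with HP1α KO Tconv. The groups did not overlap. Ccr6 had a log2 fold change of 0.27 ± 0.125 (SE, edgeR FDR 0.368, DESeq2 FDR 0.29), which without WT-3 was 0.17 in edgeR (FDR 0.602) and 0.16 in DESeq2 (FDR 0.611). Exons of Gm33799, a long noncoding RNA on the other strand, cover 46.7% of the exonic bases of Ccr6 in the GENCODE annotation, and Gm33799 was not analysed here. The library kit marks the strand, and whether the counting used it is not given in the sources used here.

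Levels of different genes were compared per kilobase of the canonical transcript. In Treg with WT Tconv the order was Cxcr4 (204 CPM per kilobase ± 35.2, SD, n = 3), Cxcr3 (131 ± 19.4), Ccr8 (69.3 ± 5.24), Ccr2 (54.1 ± 4.65), Ccr7 (40.0 ± 4.45), Cxcr6 (33.4 ± 5.91), Ccr4 (25.7 ± 2.98), Cxcr5 (14.2 ± 1.55) and Ccr6 (5.67 ± 0.759). In Treg with HP1α KO Tconv, Cxcr3 (155 ± 0.964) stood above Cxcr4 (110.0 ± 30.9), and Ccr4 (31.0 ± 4.06) above Cxcr6 (25.9 ± 0.501). Cxcr4 ranked above Cxcr3 in the 3 libraries with WT Tconv and below it in the 3 with HP1α KO Tconv. Cxcr6 ranked above Ccr4 in the 3 libraries with WT Tconv and below it in the 3 with HP1α KO Tconv. Over all 6 libraries the ranges of these neighbours overlapped, as did those of Ccr8 with Ccr2 and of Ccr7 with Cxcr6. The ranges of Cxcr3 and Ccr8, of Ccr2 and Ccr7, of Ccr4 and Cxcr5 and of Cxcr5 and Ccr6 did not overlap. With the merged exons of all transcripts as the length, a choice made after the data had been seen, the mean level over all libraries moved from 56.1 to 47.5 for Ccr2, from 14.2 to 11.2 for Cxcr5 and from 6.27 to 4.02 for Ccr6, the order of the 9 by the mean over all libraries was kept, Cxcr6 was above Ccr4 in KO-2 as well, and the ranges of Ccr2 and Ccr7 overlapped.

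**Figure D5:**
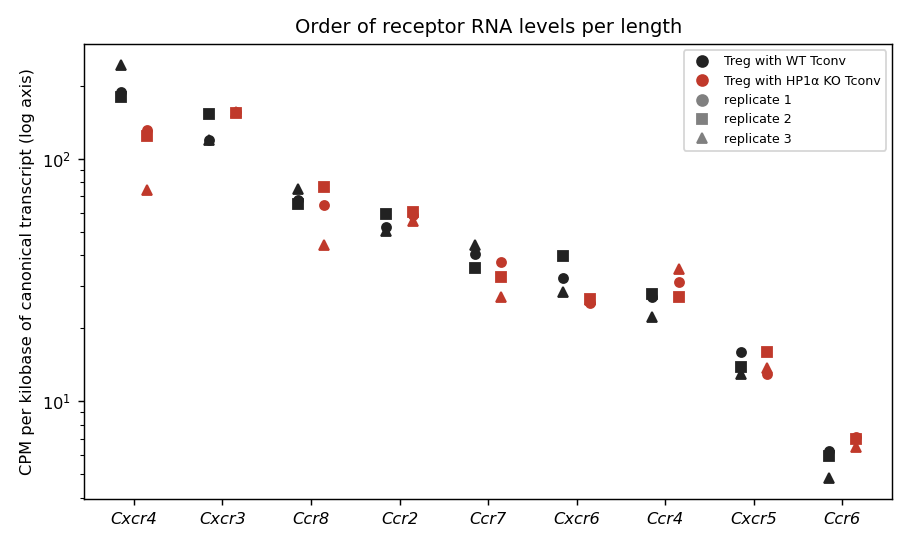
CPM per kilobase of canonical transcript (vertical log axis) of each receptor in each library, ordered by the mean over all 6, with groups by colour and replicates by symbol. Cxcr4 lies above Cxcr3 with WT Tconv and below it with HP1α KO Tconv, and Ccr6 lies lowest at 4.81 to 7.14.

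Across the 6 libraries some receptors varied alike, which is given as a description because the points share libraries and groups. The Pearson correlation of log2 CPM was 0.94 for Ccr7 and Cxcr4, 0.89 for Ccr2 and Cxcr3 and 0.78 for Ccr8 and Cxcr4, and it was -0.90 for Ccr4 and Cxcr4 and -0.85 for Ccr4 and Ccr8. The 250 bases before the start of the canonical transcript of Cxcr4, Ccr7 and Ccr4 are shown (that of Ccr4 lies within the span of the gene, of which another transcript starts farther upstream), in GRCm39 and 5′ to 3′ on the strand of the gene, with matches to the searched motifs in capitals.
Cxcr4, chr1:128520045-128520294, minus strand: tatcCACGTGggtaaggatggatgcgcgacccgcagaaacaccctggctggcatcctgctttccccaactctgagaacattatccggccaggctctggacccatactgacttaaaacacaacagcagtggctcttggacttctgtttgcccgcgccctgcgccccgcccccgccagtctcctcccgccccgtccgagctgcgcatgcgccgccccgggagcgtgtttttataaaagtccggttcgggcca
Ccr7, chr11:99045912-99046161, minus strand: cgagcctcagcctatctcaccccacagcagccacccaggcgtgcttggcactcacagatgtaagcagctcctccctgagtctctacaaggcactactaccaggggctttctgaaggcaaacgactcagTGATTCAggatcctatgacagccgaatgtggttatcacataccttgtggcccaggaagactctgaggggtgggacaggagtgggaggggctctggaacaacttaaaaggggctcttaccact
Ccr4, chr9:114325631-114325880, minus strand: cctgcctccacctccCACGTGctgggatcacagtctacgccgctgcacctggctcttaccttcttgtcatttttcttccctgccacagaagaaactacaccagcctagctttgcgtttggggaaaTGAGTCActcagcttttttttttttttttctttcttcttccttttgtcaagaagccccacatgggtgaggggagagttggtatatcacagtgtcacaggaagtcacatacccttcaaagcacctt
Matches were sought on both strands for 10 motifs picked after the levels were known, and a match is a description of letters only. The E-box CACGTG lay at bases -246 to -241 from the start of the canonical Cxcr4 transcript and at -235 to -230 from that of Ccr4, and 7.07% of 16935 windows of protein-coding genes in the table held it. The AP-1 motif TGANTCA was in the windows of Ccr7 (-122 to -116) and Ccr4 (-125 to -119), and in 5.12% of all windows. The NF-κB motif was taken as GGG and CC parted by 5 bases of any kind. It was found in the windows of 3 of the 9 receptors (Ccr8, Cxcr3 and Cxcr5), against 52.6% of all windows. Like that of Ccr4, the Cxcr5 window lies within the span of the gene. The STAT motif TTCNNNGAA occurred in the Ccr6 window, at 2 places, and in 6.93% of all windows. The GATA motif AGATAA was in the windows of Ccr2 and Ccr8, against 8.09% of all windows, and the Ccr2 window overlaps the span of the gene. The core of the cAMP response element, TGACG, was in the windows of Cxcr5 and Cxcr6, against 20.5% of all windows. The whole element TGACGTCA, which contains that core, was in 0 of the 9 windows and in 1.81% of all. The FOXO motif GTAAACA was likewise in 0 of the 9 and in 2.49% of all windows. The T-box motif TCACACC was in 0 of the 9 and in 3.04% of all, and the KLF motif CCACACCC in 0 of the 9 and in 3.32% of all. GC content was 61.6% before Cxcr4, 55.2% before Ccr7 and 48.0% before Ccr4.

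The genes whose pattern was most like each receptor were taken by the highest Pearson r of log2 CPM over 6 libraries, among the 8847 or 8848 other genes with a mean of at least 10 CPM. With so many genes and 6 points these are descriptions, and the highest r was 0.984 or more for each of the 9 receptors. For Cxcr4 they were Gramd3 and Tob2, each at 0.997. Gramd3 averaged 142 ± 16.2 and 82.6 ± 21.7 CPM (SD, n = 3 each) in the WT and KO libraries, giving -0.78 (edgeR FDR 0.23, DESeq2 FDR 0.000861). Tob2, an antiproliferative protein, had a log2 fold change of -0.45 (edgeR FDR 0.209, DESeq2 FDR 0.0101). Both genes were picked for likeness to Cxcr4 over the same libraries. Their group differences therefore follow largely from that choice and are no separate evidence. For Ccr7 they were Ddit4 (0.984), an inhibitor of mTOR, and Atg2b (0.978), an autophagy gene. Ccr4 was nearest to Kcnab2 (0.995) and Recql (0.992), Cxcr3 to Ppp4c (0.993) and Pstpip1 (0.986), Cxcr6 to Smim10l1 (0.984) and Ssh2 (0.984), Cxcr5 to Atad1 (0.993) and Gm3055 (0.98), Ccr8 to Rhof (0.996) and Tmem128 (0.996), Ccr2 to Otub1 (0.995) and Smpd2 (0.99), and Ccr6 to a gene without a symbol (ENSMUSG00000095041, 0.993) and Dhx35 (0.991).

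Other genes of the chemokine system were read from lists chosen for their roles. Of 18 further receptors for chemokines and related guidance cues, 14 were tested, of which 0 passed in edgeR and 3 had a p-value under 0.05 before adjustment (14.5% of all genes). S1pr4, a receptor for sphingosine 1-phosphate, was at 84.4, 91.9 and 76.1 CPM with WT Tconv and 106, 110 and 117 CPM with HP1α KO Tconv, without overlap. Its log2 fold change was 0.40 (edgeR FDR 0.209, DESeq2 FDR 0.00795). DESeq2 called S1pr4 alone of the list (against 4.35% of the genes to which it gave an adjusted p-value), and without WT-3 it called 0. Xcr1, the receptor of Xcl1, had a log2 fold change of -0.93 at no more than 1.24 CPM (edgeR FDR 0.23). S1pr1, which lets T cells leave lymphoid organs, had the highest CPM of the list (253 to 324) and a log2 fold change of 0.02 (edgeR FDR 0.944). Cxcr2, a neutrophil receptor, was at 6.71 CPM in library WT-3 and at 0.145 to 1.75 CPM elsewhere, alongside the neutrophil markers of that library. Cxcr1, Ackr3 and Ackr4 did not pass the count filter (11 counts or fewer per library), and Ackr2 was not analysed here.

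Ligand RNA was scarce for several of the receptors. Of 20 ligand genes, 10 passed the count filter, and the other 10, including the Ccr7 ligands Ccl19 and Ccl21a, the Ccr4 ligands Ccl17 and Ccl22, the Cxcr4 ligand Cxcl12 and the Cxcr5 ligand Cxcl13, had 28 counts or fewer in each library. None passed in edgeR (0 of 10, and 0 of 10 before adjustment, against 14.5% of all genes). DESeq2 called 0, against 4.35% of the genes to which it gave an adjusted p-value. It gave none to Cxcl11, Cxcl16, Ccl20 and Cxcl9, which it could therefore not call. Ccl1, a ligand of Ccr8, was at 3.82, 4.05 and 4.79 CPM with WT Tconv and 6.27, 8.99 and 4.04 CPM with HP1α KO Tconv (edgeR FDR 0.372). Cxcl11, a Cxcr3 ligand, had a log2 fold change of -0.90 at no more than 0.701 CPM (edgeR FDR 0.374). Cxcl10, another Cxcr3 ligand, ranged from 20.9 to 72.9 CPM (edgeR FDR 0.613). Its mean was the highest of the ligands with WT Tconv (60.3 CPM), while with HP1α KO Tconv the mean of Ccl5 (49.2 CPM) was above that of Cxcl10 (39.3 CPM).

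Of 23 genes that carry receptor signals to the cytoskeleton and integrins, 0 passed in edgeR. Before adjustment 8 had an edgeR p-value under 0.05 (4 higher and 4 lower with HP1α KO Tconv, against 6.98% and 7.52% of all genes). DESeq2 called 3 (Gna13, Coro1a and Rap1b), against 4.35% of the genes to which it gave an adjusted p-value. It called 0 without WT-2, 0 without WT-3, Rap1b alone without WT-1, and Gna13 and Coro1a without KO-3. Without KO-1 it called the same 3, and without KO-2 it called 5. The groups did not overlap for 11 of the 23 (23.0% of all genes), 7 higher (11.5%) and 4 lower (11.6%). Rap1b, a GTPase that activates integrins, was at 540, 593 and 559 CPM with WT Tconv and 486, 436 and 415 CPM with HP1α KO Tconv, giving a log2 fold change of -0.34 (edgeR FDR 0.209, DESeq2 FDR 0.0174). Gna13, a G protein subunit that restrains migration, was at 673, 652 and 664 CPM and at 522, 547 and 422 CPM, a log2 fold change of -0.42 (edgeR FDR 0.209, DESeq2 FDR 0.0114). Coro1a, an actin regulator and the gene of the list with the highest CPM, was higher at 1563, 1945 and 1642 CPM against 1323, 1389 and 1283 CPM (edgeR FDR 0.209, DESeq2 FDR 0.0225).

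Of 14 genes that end receptor signals, 0 passed in edgeR and 5 had a p-value under 0.05 before adjustment (3 higher and 2 lower, against 6.98% and 7.52% of all genes). DESeq2 called 2 (Rgs2 and Grk6), against 4.35% of the genes to which it gave an adjusted p-value. Rgs2, which shortens G protein signals, was at 645, 685 and 705 CPM with WT Tconv and 492, 418 and 384 CPM with HP1α KO Tconv. All 3 libraries of the latter were below those of the former. Rgs2 had a log2 fold change of -0.65 ± 0.0989 (SE, edgeR FDR 0.209, DESeq2 FDR 6.22e-06), and edgeR with a filter of only 1 count called Rgs2 among 38 genes. Grk6, a kinase that desensitizes chemokine receptors, was at 283, 301 and 265 CPM against 342, 336 and 349 CPM, a log2 fold change of 0.28 (edgeR FDR 0.209, DESeq2 FDR 0.0403). DESeq2 also called Grk6 without WT-2 and without KO-2, but not without WT-1, WT-3, KO-1 or KO-3. Rgs1, the gene of the list with the highest CPM (1664 to 2533), had a log2 fold change of -0.29 (edgeR FDR 0.304, DESeq2 FDR 0.131). The medians of the lists were -0.12 for the further receptors, 0.08 for the ligands, 0.04 for the signalling genes and -0.01 for the genes that end signals, beside -0.0085 over all genes.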

How the data were processed

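Total RNA of sorted splenic Treg was sequenced from 3 libraries per group. Per the submitters' processing notes and the study's methods, the authors trimmed reads, aligned them with STAR to GRCm39 and estimated expression per gene with Salmon in the nf-core pipeline, from stranded TruSeq libraries. The deposited table holds estimated counts for each gene, as whole numbers and without normalization. Salmon assigns reads that fit several genes by a model, so close homologues may exchange counts. Of the per-sample columns, 0 were left unused, and 97 genes without a symbol of their own were kept under their identifiers.

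Genes were tested with edgeR version 4.0.16 in R version 4.3.3 (TMM, filterByExpr, glmQLFit with robust = TRUE and its default legacy method, glmQLFTest, group as the sole term), which tested 18321 genes and kept all 9 receptors. Adjusted p-values are Benjamini-Hochberg over all genes tested, with a threshold of 0.05. Standard errors were derived from the fold change and its F statistic. The study used DESeq2, here version 1.42.0 as an alternative. Further alternatives were limma-voom (limma version 3.58.1), the newer quasi-likelihood method, no robust estimation, 3 scalings, 2 filters, a replicate block and leaving out each library. Leaving out libraries in DESeq2 and the merged-exon length were chosen after the data had been seen. CPM use TMM-scaled totals, and marker sums use plain totals. Log2 CPM for correlations had a prior count of 2. Replicates of a group differed beyond counting noise (chi-square over its degrees of freedom, at least 21.6).

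The receptors and all lists were chosen with earlier results of these data known. Named were all 9 receptors and, of each further list, the genes called or else the 2 with the smallest unadjusted p-value and the most abundant, with other genes where DESeq2 called them or a marker was concerned. Some items that this rule names are not reported here. Positions, transcripts and sequences came from the GENCODE annotation and genome of GRCm39, the assembly of the authors but a later annotation.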

Additional observations from a re-analysis of the deposited data

How the results depend on the processing

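Of 198 alternative values of receptor fold changes, 176 kept their direction and their side of the threshold, 12 changed sign and 10 passed the threshold, all of these in DESeq2 (Cxcr4 in 7 fits, and Ccr4, Cxcr3 and Cxcr6 in 1 each that left out a library). Cxcr5 changed sign in 10, to 0.0039 with limma-voom, 0.020 with upper quartile scaling, 0.037 with total counts only and 0.00016 without a filter beyond 1 count, and it ran from -0.091 to 0.10 without single libraries in edgeR. In DESeq2 it was 0.087 without WT-1, 0.058 without KO-1 and 0.028 without KO-3. Ccr8 ran from -0.35 to 0.022 without single libraries in edgeR, the latter without KO-3, and was 0.023 without KO-3 in DESeq2.

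The count of receptors called was 0 in edgeR and stayed 0 in every edgeR and limma-voom alternative, and was 1 with DESeq2 and 1 to 2 without single libraries in DESeq2. Over all genes the count of 0 became 526 with DESeq2, 1 with upper quartile scaling, 38 without a filter beyond 1 count, 0 to 2 without single libraries in edgeR, and in DESeq2 328, 279 and 181 without WT-1, WT-2 and WT-3 and 681, 1413 and 332 without KO-1, KO-2 and KO-3. With DESeq2 the lists gave 1 further receptor, 3 signalling genes, 2 genes that end signals and 1 regulator. Without a filter beyond 1 count, edgeR called 1 gene that ends signals (Rgs2) and 1 regulator (Rora). Without single libraries, DESeq2 called 0 to 3 further receptors, 0 to 1 ligands, 0 to 5 signalling genes, 1 to 4 genes that end signals and 1 to 5 regulators, while edgeR called 0 of each. The cause of the difference between the tests was not tested.

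With the replicate number as a block, edgeR called 1 gene and 0 receptors, and the log2 fold change of Cxcr4 was -0.92 (FDR 0.432). The libraries share a number and no stated pairing. Correlations of their deviations from the group means were -0.04, 0.18 and 0.12 for numbers 1, 2 and 3, and not every library correlated best with its own number (WT-1 with KO-2, and WT-3 with KO-1).

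Leaving out single libraries moved the difference in marker sums (HP1α KO Tconv minus WT Tconv, in CPM) between -796 and 95.8 for neutrophil, -75.1 and 21.5 for monocyte or macrophage and -2366 and 199 for red cell markers, positive without WT-3 alone, and between -0.491 and 1.02 for CD8 T cell markers, negative without KO-3 alone. The length used moved the levels per kilobase of Ccr2 to 47.5, Cxcr5 to 11.2 and Ccr6 to 4.02. The receptors had 886 counts or more in each library.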

Other observations

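Transcription factors known to act on chemokine receptor genes were read from a list of 16, of which 0 passed in edgeR and 3 had an unadjusted p-value under 0.05, all lower with HP1α KO Tconv, against 7.52% of all genes in that direction. DESeq2 called 1 of the 16, Rora, against 4.35% of the genes to which it gave an adjusted p-value. Rora, a factor of Th17 cells and tissue Treg, was at 401, 380.2 and 363 CPM with WT Tconv and 289, 266 and 238 CPM with HP1α KO Tconv, without overlap, a log2 fold change of -0.53 (edgeR FDR 0.209, DESeq2 FDR 0.00013). Prdm1, a factor of effector Treg, had a log2 fold change of -0.21 (edgeR FDR 0.284). Tbx21, which drives Cxcr3 in Th1-like Treg, was at 23.5, 27.6 and 29.0 CPM with WT Tconv and 26.1, 30.7 and 26.4 CPM with HP1α KO Tconv, and its groups overlapped. Tbx21 was singled out after its values were seen. The median log2 fold change of the list was -0.08, with 7 genes above 0 and 9 below.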
